A study of Mus musculus with 10 samples.

Results

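The genes described here are 37 genes of glucose uptake and glycolysis, chosen by function and matched by symbol in the transcript tables, out of 22380 genes quantified. They are 2 glucose transporters, the enzymes from hexokinase to lactate dehydrogenase with their paralogues, the enzymes that make and remove fructose 2,6-bisphosphate, the lactate and pyruvate carriers, 3 subunits of pyruvate dehydrogenase, 3 of its kinases and Hif1a. All 37 were found, each under 1 gene identifier. They were measured by RNA-seq in germinal center B cells that bound the hapten NP (GL7+ IgD-), taken 2 weeks after C57Bl6/N mice were immunized into the peritoneum with NP-OVA in Alhydrogel. ZBTB38 WT mice (2 libraries) carried 2 floxed alleles of Zbtb38 and no Cre. ZBTB38 HET mice (2 libraries) carried 1 floxed allele and Vav-Cre, and ZBTB38 KO mice (6 libraries) carried 2 floxed alleles and Vav-Cre. Every mouse thus had at least 1 floxed allele, and Vav-Cre was present in HET and KO but not in WT. Vav-Cre is active in all hematopoietic cells, so the deletion was not limited to B cells, and the floxed line came from a single founder. ZBTB38 is a BTB zinc finger factor that binds methylated CpG sites, and the comparisons ask whether its loss alters gene expression in these cells.

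Glycolysis splits glucose into pyruvate in the cytosol. Glucose enters through facilitative transporters and is trapped by hexokinase. Phosphofructokinase commits it to the pathway, and pyruvate kinase closes it. Pyruvate is then reduced to lactate by lactate dehydrogenase and exported, or carried into mitochondria and oxidized by pyruvate dehydrogenase, which its kinases switch off. B cells raise glucose uptake when they are activated, and germinal center B cells also burn fatty acids and occupy partly hypoxic tissue, where HIF-1α, the protein made from Hif1a, activates many glycolytic genes.

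Between 26612361 and 41058976 estimated counts were assigned per library. Levels are given either as TPM, which is scaled for transcript length, or as CPM, which is counts scaled to library size after TMM normalization and is not scaled for length. Zbtb38, the gene targeted, was at 162 and 152 CPM in WT, 117 and 106 CPM in HET, and between 18.6 and 50.3 CPM in KO, so no KO library reached any control. In TPM it was at 63.5 and 63.3 in WT, 49.6 in both HET libraries and between 17.5 and 46.1 in KO, where KO replicate 2 came close to HET. These values cover the whole gene and not the floxed exon alone. Zbtb38 was the only gene with an edgeR adjusted p under 0.1 in WT against KO and in WT plus HET against KO. In HET against KO and in WT against HET the only such gene was Hnrnpll, which is named after its values were seen. The germinal center B cell marker Bcl6, the master repressor of these cells, was present in every library, at 59.3 to 122 TPM. KO replicate 6 stood apart on the first principal component, at 79.3 against -23.4 to 0.733 in the other 9 libraries. Libraries also differed by transcript length. Among 9945 genes with at least 1 CPM in every library, the median log2 deviation of genes of 4 kb or longer minus that of genes under 1 kb was 0.18 to 0.36 in the 4 control libraries. In KO it was -0.77 in replicate 1, -0.38 in replicate 6, -0.26 in replicate 3 and -0.03 in replicate 5, and 0.22 and 0.23 in replicates 2 and 4.

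No glycolysis or glucose uptake gene passed the adjusted threshold in any comparison. Of the 37, 36 could be tested in WT against KO and in WT plus HET against KO, where Eno2 was removed for low counts, and all 37 in the comparisons with HET. None had an edgeR adjusted p under 0.1, against a background of 0.00704% of all genes in WT against KO, 0.00749% in WT plus HET against KO, 0.00697% in HET against KO and 0.00697% in WT against HET. The smallest adjusted p of any of them, over all comparisons and all alternative settings, was 0.139. The few genes with unadjusted p-values under 0.05 were Hk1, Mpc1, Pdhb, Hif1a, Pfkl, Slc16a1 and Pfkfb3. In GRCm38 (Gencode vM21) these genes lie at chr10:62268855-62379908 (Hk1), chr17:8282904-8297661 (Mpc1), chr14:8165996-8173025 (Pdhb), chr12:73901375-73947530 (Hif1a), chr10:77986947-78010083 (Pfkl), chr3:104638668-104658462 (Slc16a1) and chr2:11471433-11554077 (Pfkfb3), and Zbtb38 at chr9:96682770-96752831, so none of them neighbours it. The labels give 1 mouse per library, and the p-values measure the spread between these mice. In bulk RNA a lower level in every cell and fewer cells that express a gene cannot be told apart.

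**Figure D1:**
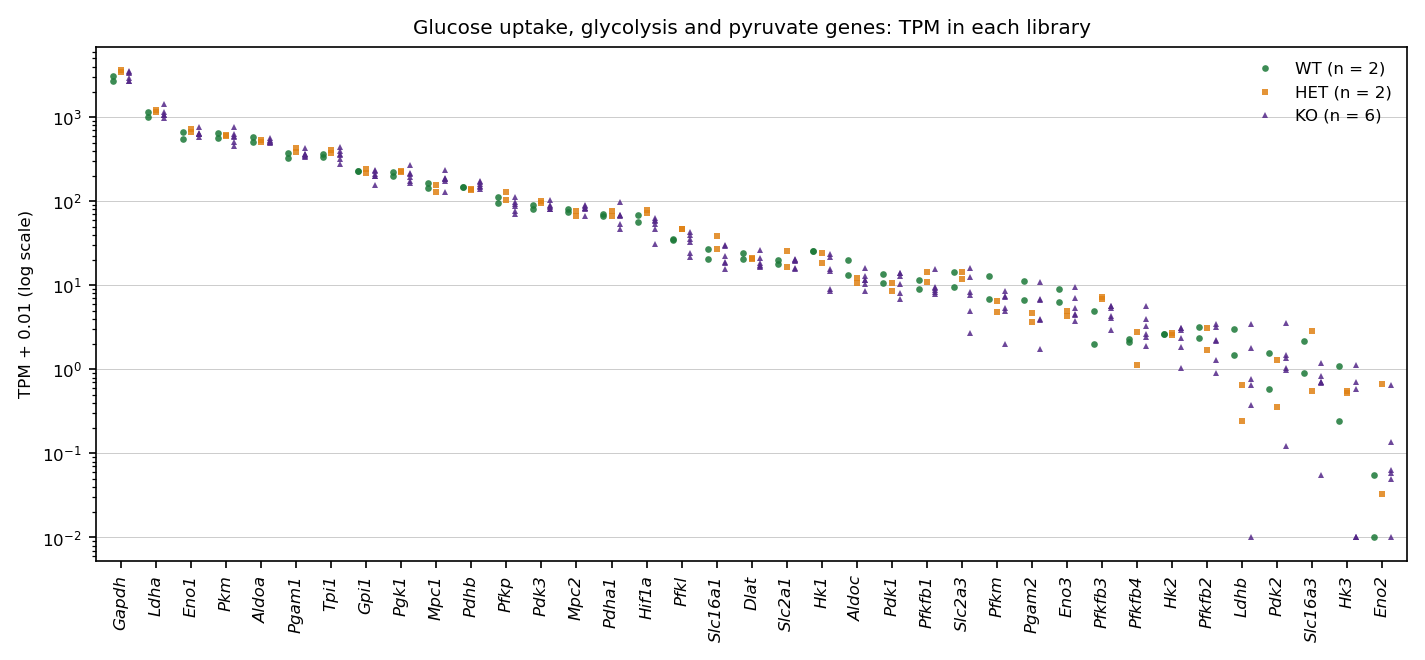
TPM of each of the 37 genes (horizontal axis, ordered by mean level) in each library (vertical axis, TPM + 0.01 on a log scale), with 1 point per library. Gapdh is highest and Eno2 lowest, and for the 11 genes with a mean of 100 TPM or more the points of the 3 genotypes lie close together, while those of the rare paralogues on the right scatter widely.

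The level of the set spanned from Gapdh, with a mean of 3154 TPM over the 10 libraries and rank 24 among all genes, to Eno2, with 0.163 TPM. A mean of 100 TPM or more was reached by 11 genes. In that order they were Gapdh, Ldha, Eno1, Pkm, Aldoa, Pgam1, Tpi1, Gpi1, Pgk1, Mpc1 and Pdhb. A further 14 lay between 10 and 100 TPM, 10 between 1 and 10 TPM, and Hk3 and Eno2 under 1 TPM. Hk3, Eno2 and Ldhb had a count of 0 in at least 1 library, where a count of 0 allows up to 3 counts. In 4 enzyme families 1 paralogue made nearly all of the RNA. It was Ldha with 99.9% of the 2 lactate dehydrogenases, Eno1 with 99.1% of the 3 enolases, Pgam1 with 98.4% of the 2 mutases and Aldoa with 97.6% of the 2 aldolases. The muscle and brain forms Pgam2, Eno3 and Eno2 and the heart form Ldhb were the minor ones. Summed over the 37 genes, the level was 8261 and 7324 TPM in WT, 8612 and 8799 TPM in HET and between 7236 and 9405 TPM in KO. The means were 7793 ± 663 (SD, n = 2), 8705 ± 132 (SD, n = 2) and 8046 ± 755 (SD, n = 6), and in TPM all control libraries lay within the KO range. In CPM the sum of WT replicate 2, at 7719, was just below that of the lowest KO library, at 7784 in KO replicate 4. The set took between 0.724% and 0.941% of all TPM, and Gapdh alone made 38.8% of the sum. Gapdh, Eno1, Pgam1, Ldha and Tpi1 have processed pseudogenes, and only transcripts with a coding sequence were quantified, so reads that fit both cannot be told apart.

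RNA of both glucose transporters of the set was found in every library, and uptake itself was not measured. Slc2a1 encodes GLUT1, the basal transporter of blood cells. It was at 17.9 and 20.1 TPM in WT, 16.7 and 25.7 TPM in HET, and between 15.8 and 20.3 TPM (median 19.7) in KO. The 3 groups overlapped. Slc2a3 encodes GLUT3, a transporter of higher affinity. It was at 15.6 and 22.3 CPM in WT, 23.0 and 17.0 CPM in HET, and between 8.59 and 19.5 CPM (median 14.9) in KO. WT exceeded KO by a log2 fold change of 0.36 (standard error 0.34) and WT plus HET did so by 0.40 (standard error 0.25), with edgeR adjusted p = 0.999 and 0.748, and the lowest values were those of KO replicates 6 and 1.

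Hexokinase, which phosphorylates glucose on entry, was mainly Hk1, with 86.3% of the TPM of the 3 hexokinases. Hk1 was at 62.2 and 61.5 CPM in WT, 46.9 and 56.1 CPM in HET, and between 26.1 and 55.4 CPM (median 38.4) in KO. Both WT libraries and HET replicate 2 were above all KO libraries, the latter narrowly, whereas HET replicate 1 lay inside the KO range. The log2 fold change of WT over KO was 0.63 (standard error 0.29, edgeR adjusted p = 0.999), and that of WT plus HET over KO was 0.51 (standard error 0.22, edgeR adjusted p = 0.744). It was the only gene of the set with an unadjusted p under 0.05 in WT against KO. Its p stayed under 0.05 there only without KO replicate 4 or without KO replicate 5, and was above 0.05 without any one of the other 6 libraries. Hk2, the inducible hexokinase, was at 2.64 and 2.66 TPM in WT, 2.67 and 2.58 TPM in HET, and between 1.02 and 3.13 TPM in KO, and Hk3 stayed at or under 1.11 TPM in every library. Gpi1, the isomerase that follows, was at 226 and 231 TPM in WT, 215 and 244 TPM in HET, and between 158 and 235 TPM (median 207) in KO.

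Phosphofructokinase, the committed step, was made mostly as the platelet form Pfkp (69.6% of the family) and the liver form Pfkl (25.7%). Pfkp was at 111 and 94.8 TPM in WT, 104 and 128 TPM in HET, and between 70.3 and 111 TPM (median 90.6) in KO. Pfkl was at 82.2 and 81.5 CPM in WT, 112 and 107 CPM in HET, and between 65.8 and 103 CPM (median 87.7) in KO. Both HET libraries were above every other library, and both WT libraries lay inside the KO range. The log2 fold change of Pfkl was 0.36 (standard error 0.15, edgeR adjusted p = 0.469) for HET over KO and -0.42 (standard error 0.19, edgeR adjusted p = 0.775) for WT over HET. Pfkm, the muscle form, was at 6.89 and 11.5 CPM in WT, 10.1 and 5.97 CPM in HET, and between 0.931 and 8.59 CPM (median 5.09) in KO, with the lowest value in KO replicate 6.

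Phosphofructokinase is activated by fructose 2,6-bisphosphate, which the 4 Pfkfb enzymes make and break down. Pfkfb1 had 51.1% of their TPM, at 11.7 and 9.05 TPM in WT, 14.5 and 11.1 TPM in HET, and between 7.78 and 15.5 TPM (median 9.04) in KO. Pfkfb3, the form with the highest kinase activity, was at 5.69 and 12.5 CPM in WT, 20.1 and 18.1 CPM in HET, and between 10.5 and 20.4 CPM (median 14.2) in KO. Both WT libraries were below both HET libraries. The log2 fold change of WT over HET was -1.07 (standard error 0.41, edgeR adjusted p = 0.716), and that of WT over KO was -0.72 (standard error 0.37, edgeR adjusted p = 0.999). Pfkfb4 was at 4.56 and 4.73 CPM in WT, 6.72 and 2.03 CPM in HET, and between 5.08 and 11.2 CPM (median 6.52) in KO, with a log2 fold change of WT over KO of -0.66 (standard error 0.43, edgeR adjusted p = 0.999).

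For each enzyme of the lower chain, both WT and HET overlapped with KO. For Tpi1, Gapdh and Pgam1, WT and HET did not overlap in TPM and in CPM, each lower in WT (edgeR adjusted p from 0.909 to 0.970). Among the other genes of the set, Aldoc, Hk1, Pdhb, Ldhb and Pgam2 also did not overlap between WT and HET on either scale, each higher in WT. Hif1a, Pdk3, Pfkfb3, Pfkl and Slc16a1 did not overlap on either scale and were lower in WT, Slc16a1 only narrowly. The share of all genes without overlap between 2 and 2 libraries was not computed, so no pattern is read from these genes. Aldoa, the aldolase that cleaves fructose 1,6-bisphosphate, was at 575 and 505 TPM in WT, 532 and 504 TPM in HET, and between 490 and 567 TPM (median 515) in KO. Tpi1, which interconverts the 2 triose phosphates, was at 363 and 337 TPM in WT, 373 and 408 TPM in HET, and between 274 and 445 TPM (median 363) in KO. Neither differed by more than the spread within KO. Gapdh, which oxidizes glyceraldehyde 3-phosphate, was at 3110 and 2682 TPM in WT, 3411 and 3608 TPM in HET, and between 2683 and 3544 TPM (median 3182) in KO. Pgk1, the first step that yields ATP, was at 225 and 202 TPM in WT, 220 and 231 TPM in HET, and between 166 and 271 TPM (median 202) in KO. For Gapdh in TPM, WT replicate 2 was the lowest library by a margin of no weight over KO replicate 4. In CPM, KO replicate 4 was the lowest, at 2128 against 2175 in WT replicate 2. Both values of Pgk1 in HET lay inside the KO range. Pgam1, the phosphoglycerate mutase, was at 378 and 325 TPM in WT, 427 and 388 TPM in HET, and between 338 and 430 TPM (median 357) in KO. Eno1, the enolase, was at 673 and 552 TPM in WT, 662 and 717 TPM in HET, and between 579 and 765 TPM (median 626) in KO. For both genes WT replicate 2 was the lowest library. Ldha, which turns pyruvate into lactate, was at 1141 and 1008 TPM in WT, 1232 and 1146 TPM in HET, and between 982 and 1438 TPM (median 1072) in KO.

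The spread between mice and the number of libraries set the precision. For the 11 genes of 100 TPM or more, standard errors of the log2 fold change lay between 0.14 and 0.26 in WT against KO and between 0.10 and 0.19 in WT plus HET against KO. A 95% interval from the t distribution with the residual degrees of freedom (6 and 8) lay inside a 2-fold change in either direction for 10 of the 11 in WT against KO, Mpc1 being the exception, and for all 11 in WT plus HET against KO. For the other 25 genes tested, that held for 12 and 16.

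Pkm, the pyruvate kinase of these cells, makes 2 enzymes from 1 gene by using 1 of 2 neighbouring exons. The M1 exon gives a constitutively active enzyme of muscle and brain, and the M2 exon gives the regulated form of proliferating cells. Both exons lie on chromosome 9 (plus strand, GRCm38, Gencode vM21) and have 167 bases, of which 103 are identical (61.7%). They are printed here because the transcript values turn on them, in the direction of transcription, with capitals at the 64 positions where they differ.
M1 exon, chr9:59675029-59675195: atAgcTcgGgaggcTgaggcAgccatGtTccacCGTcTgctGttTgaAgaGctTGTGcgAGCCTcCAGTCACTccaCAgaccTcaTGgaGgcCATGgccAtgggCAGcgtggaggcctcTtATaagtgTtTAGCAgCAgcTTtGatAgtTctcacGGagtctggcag
M2 exon, chr9:59675568-59675734: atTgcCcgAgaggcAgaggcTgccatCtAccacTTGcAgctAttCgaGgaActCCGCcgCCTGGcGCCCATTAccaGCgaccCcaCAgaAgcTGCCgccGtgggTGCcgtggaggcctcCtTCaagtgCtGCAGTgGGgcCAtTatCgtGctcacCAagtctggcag

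The transcript with the M2 exon carried most of Pkm in every library. It was at 569 and 510 TPM in WT, 549 and 553 TPM in HET, and between 424 and 683 TPM in KO, while the transcript with the M1 exon was between 15.0 and 29.9 TPM over the 10 libraries. The M2 share of the 2 was 95.7% ± 0.91 (SD, n = 2) in WT, 95.1% ± 0.26 (SD, n = 2) in HET and 95.5% ± 1.07 (SD, n = 6) in KO, with 93.7% in KO replicate 1 and 96.6% in KO replicate 6 as the extremes. All 4 control libraries lay inside the KO range. Summed over all its transcripts, Pkm was at 642 and 572 TPM in WT, 599 and 620 TPM in HET, and between 452 and 761 TPM (median 590) in KO. Salmon assigns reads that fit both transcripts by estimation, so these shares carry an error that the tables do not give.

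Lactate leaves the cell through the monocarboxylate transporters. Slc16a1 encodes MCT1 and had 95.9% of the TPM of the pair with Slc16a3, which encodes MCT4. Slc16a1 was at 82.2 and 62.6 CPM in WT, 122 and 82.4 CPM in HET, and between 62.7 and 97.0 CPM (median 66.5) in KO. HET replicate 1 was the highest library, and HET replicate 2 lay inside the KO range. HET over KO gave a log2 fold change of 0.46 (standard error 0.21, edgeR adjusted p = 0.489). Slc16a3 had between 2 and 126 counts per library, at 3.02 and 1.28 CPM in WT, 1.37 and 3.51 CPM in HET, and between 0.0601 and 1.83 CPM (median 1.10) in KO.

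Pyruvate enters mitochondria through a carrier made of Mpc1 and Mpc2. Mpc1 was at 68.8 and 71.0 CPM in WT, 76.1 and 57.0 CPM in HET, and between 60.9 and 130 CPM (median 91.5) in KO. The highest values were those of KO replicates 6 and 1, and KO replicate 2 lay among the controls. The log2 fold change of WT plus HET over KO was -0.47 (standard error 0.19, edgeR adjusted p = 0.744), and that of WT over KO was -0.44 (standard error 0.26, edgeR adjusted p = 0.999). On the TPM scale, which adjusts for length, Mpc1 was at 142 and 164 in WT, 157 and 129 in HET, and between 127 and 236 (median 186) in KO. Mpc2 was at 47.2 and 42 CPM in WT, 39.2 and 44.4 CPM in HET, and between 37.4 and 68.6 CPM (median 52.6) in KO, with a log2 fold change of WT plus HET over KO of -0.29 (standard error 0.16, edgeR adjusted p = 0.744).

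Pyruvate dehydrogenase joins glycolysis to the TCA cycle, and Pdhb encodes the beta subunit of its E1 enzyme. Pdhb was at 140 and 136 CPM in WT, 131 and 132 CPM in HET, and between 142 and 187 CPM (median 161) in KO. All 4 control libraries were below all 6 KO libraries, though narrowly, with the highest control at 139.8 CPM and the lowest KO library at 141.8 CPM, and Pdhb was the only gene of the set for which this held. The log2 fold change of WT plus HET over KO was -0.27 (standard error 0.10, edgeR adjusted p = 0.744). In TPM the groups overlapped, with 148 and 149 in WT, 138 and 141 in HET, and between 142 and 175 (median 156) in KO. Pdha1, the alpha subunit, was at 71.0 and 67.0 TPM in WT, 76.9 and 66.3 TPM in HET, and between 46.5 and 98.4 TPM in KO, and Dlat, the E2 subunit, was at 24.2 and 20.6, 21.1 and 20.4, and between 16.7 and 26.2 TPM. Of the kinases that inhibit the complex, Pdk3 had 88.1% of the TPM, at 90.7 and 81.8 TPM in WT, 94.4 and 99.7 TPM in HET, and between 81.4 and 105 TPM (median 86.4) in KO.

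Hif1a was at 216 and 178 CPM in WT, 259 and 231 CPM in HET, and between 129 and 206 CPM (median 186) in KO. Both HET libraries were above all KO libraries, and WT replicate 2 lay inside the KO range. HET over KO gave a log2 fold change of 0.44 (standard error 0.17, edgeR adjusted p = 0.434), and WT plus HET over KO gave one of 0.29 (standard error 0.14, edgeR adjusted p = 0.744). The lowest library was KO replicate 1.

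**Figure D2:**
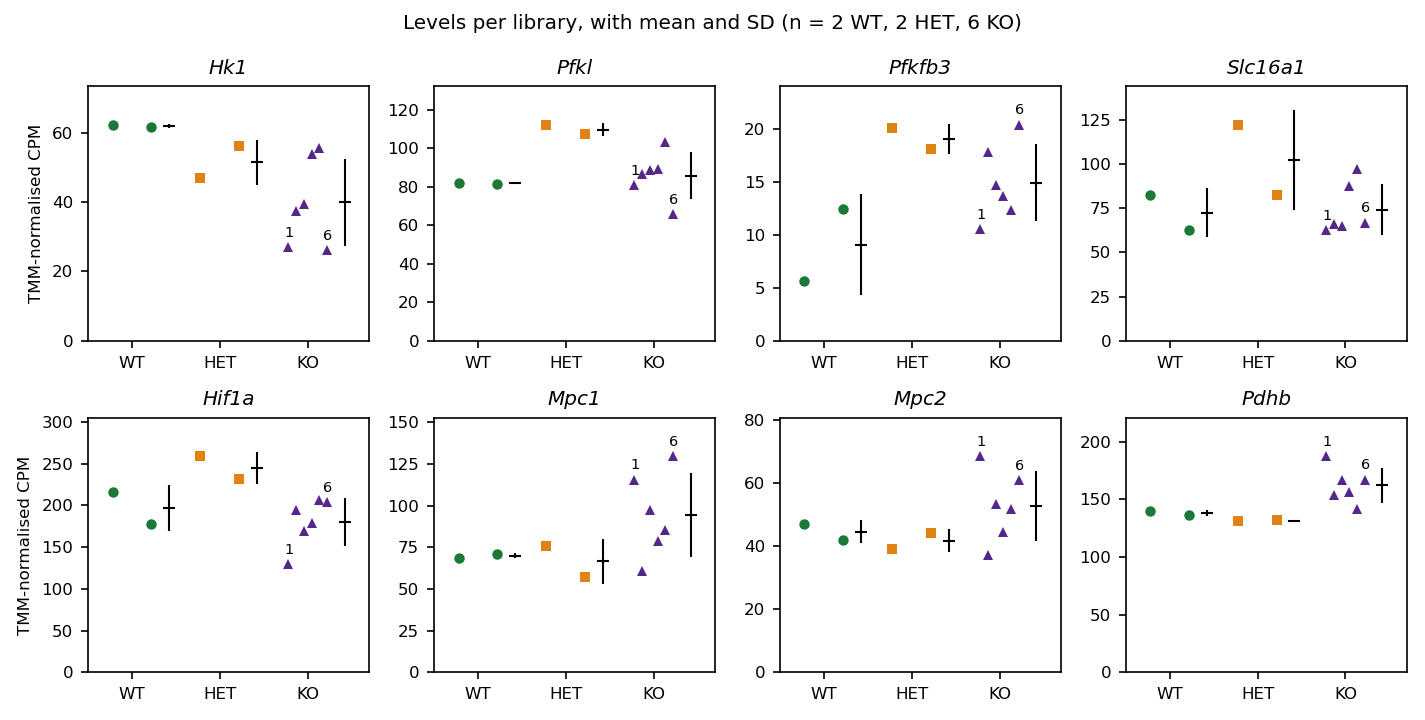
TMM-normalised CPM of 8 genes (vertical axis, from 0) in the WT, HET and KO libraries, 1 point per library, with the mean and SD beside each group and KO replicates 1 and 6 marked by number. Hk1 is above all KO libraries in both WT libraries and in HET replicate 2, and Pdhb is below all KO libraries in all 4 controls.

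Counted over the set, the genes with small p-values were few in each comparison. In WT against KO, 1 of 36 had an unadjusted p under 0.05 and was higher in WT (Hk1), where 1.19% of all genes were, and 0 were lower, where 1.00% of all genes were. In that comparison 1 gene (Hk1) was above KO in every WT library and 2 (Pdhb and Pfkfb4) were below, where 3.91% and 2.68% of all genes were. In WT plus HET against KO, 1 gene was higher (Hk1) and 2 were lower (Mpc1 and Pdhb), where 4.05% and 2.26% of all genes were. In that comparison 0 genes were above KO in every control library and 1 (Pdhb) was below, where 0.996% and 0.524% of all genes were. In HET against KO, 3 of 37 were higher (Hif1a, Pfkl and Slc16a1) and 1 was lower (Pdhb), where 5.46% and 4.76% of all genes were. In that comparison 2 genes (Hif1a and Pfkl) were above KO in both HET libraries and 1 (Pdhb) was below, where 8.12% and 5.76% of all genes were. In WT against HET, 0 genes were higher in WT and 2 were lower (Pfkfb3 and Pfkl), where 3.98% and 2.44% of all genes were. These are counts of 0 to 3 genes, and 1 gene is 2.78% of 36. The 3 comparisons with KO share the KO libraries, and the values of a gene in them are not independent.

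**Figure D3:**
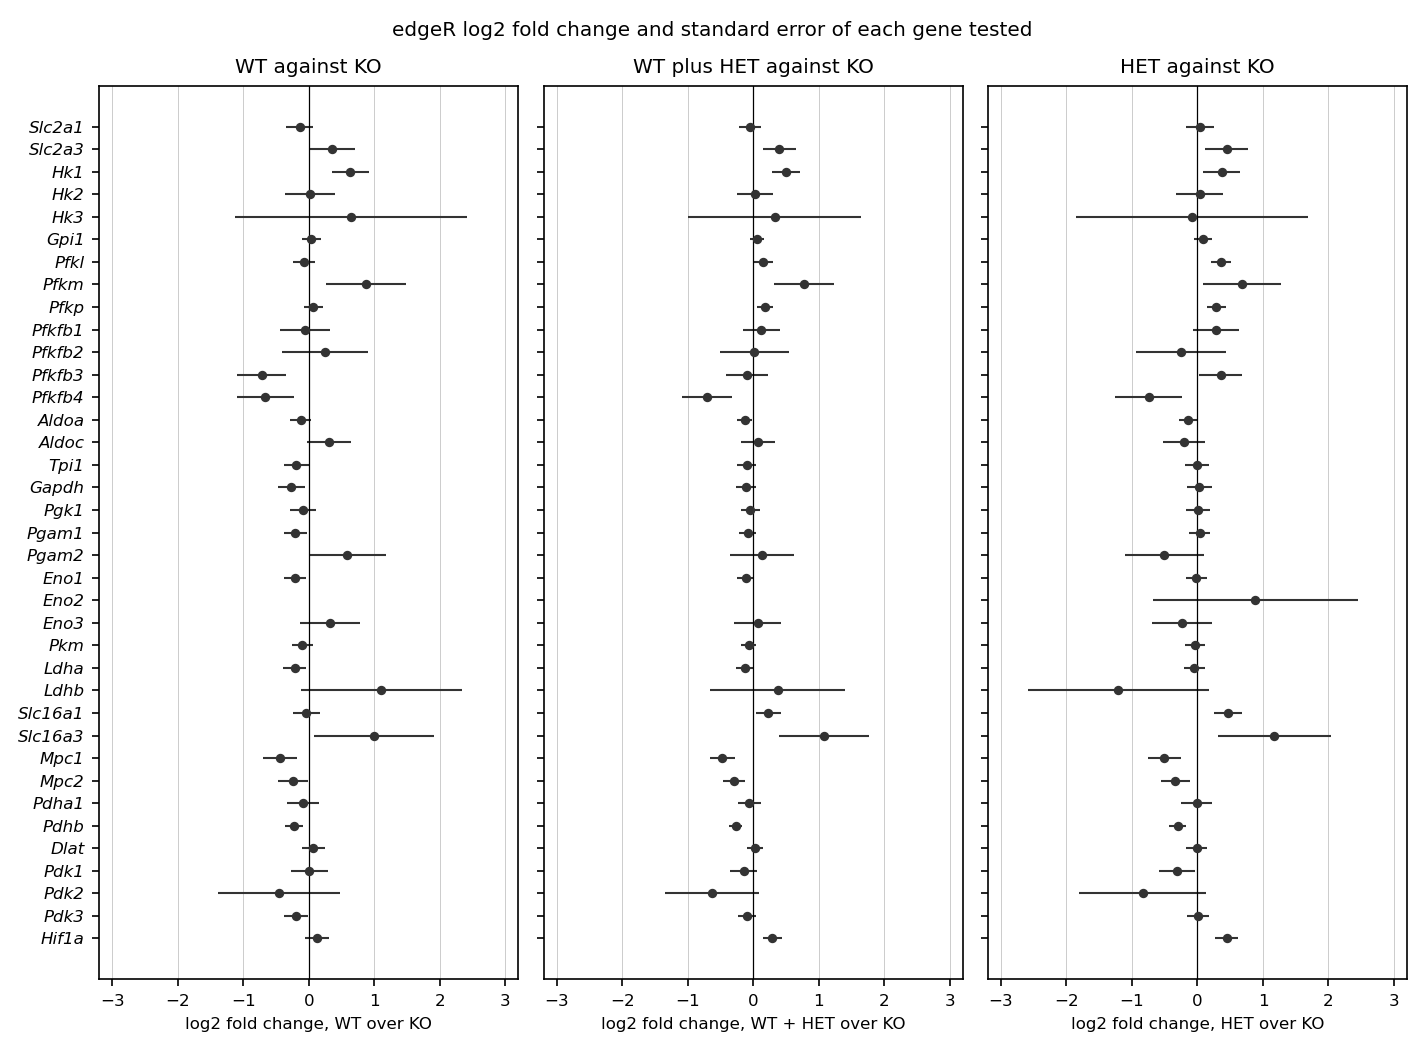
Log2 fold change (horizontal axis, control over KO) with its standard error for each gene tested, in the order of the pathway, in WT against KO, WT plus HET against KO and HET against KO. The genes of high level sit close to 0 with short bars, and the long bars belong to rare paralogues such as Hk3, Ldhb and Pdk2.

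The direction of the set was not uniform. Of 36 genes, 16 had a log2 fold change above 0 in WT against KO and 18 in WT plus HET against KO, which is 44.4% and 50%, against 48.2% and 47.2% of all genes. Of 37 genes, 18 did so in HET against KO (48.6%, against 43.7%) and 16 in WT against HET (43.2%, against 51.1%). The medians of the set were -0.06, -0.01, -0.01 and -0.06 in these 4 comparisons, and those of all genes were -0.01, -0.02, -0.07 and 0.01. On log2(TPM + 1) the median of all genes moved to 0.11 in WT against KO and 0.08 in WT plus HET against KO, and 24 and 31 of the 36 genes had a value above 0 there. Relative to that shifted median, 18 and 21 of the 36 were above it.

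Fold changes against KO rose with transcript length over all genes. Taking the length of the transcript with the highest TPM of each gene, in WT plus HET against KO the median log2 fold change of all genes was -0.16 under 2 kb, 0.03 from 2 to 4 kb and 0.16 from 4 kb. Among the glycolysis genes it was -0.06 in the 16 genes under 2 kb, -0.05 in 13 genes from 2 to 4 kb and 0.03 in the 7 genes from 4 kb. In HET against KO the medians of the 3 classes were -0.17, 0.02 and 0.35 for the glycolysis genes and -0.20, 0.0052 and 0.15 for all genes. In WT against HET those of all genes were 0.036, 0.012 and -0.045. Of the genes with an unadjusted p under 0.05, Mpc1 has a main transcript of 0.958 kb and Pdhb of 1.513 kb, and these were the ones lower in the controls than in KO. Hk1 with 4.278 kb, Slc16a1 with 4.426 kb, Hif1a with 4.724 kb and Pfkl with 3.73 kb were the ones higher in WT or HET than in KO. Pfkfb3, the longest of these genes with 4.801 kb, did not follow this split in WT. Its log2 fold change was -0.72 for WT over KO, -1.07 for WT over HET and 0.35 for HET over KO. When edgeR was fitted with offsets that remove a trend on length in each library, a choice made after seeing the data, the number of glycolysis genes with an unadjusted p under 0.05 went from 3 to 0 in WT plus HET against KO and from 4 to 0 in HET against KO. It stayed at 1 in WT against KO, where the gene was then Pfkfb3, and at 2 in WT against HET. With these offsets the log2 fold change of WT plus HET over KO was 0.38 for Hk1, -0.29 for Mpc1, -0.16 for Pdhb and 0.13 for Hif1a. What made the libraries differ in this trend was not tested.

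**Figure D4:**
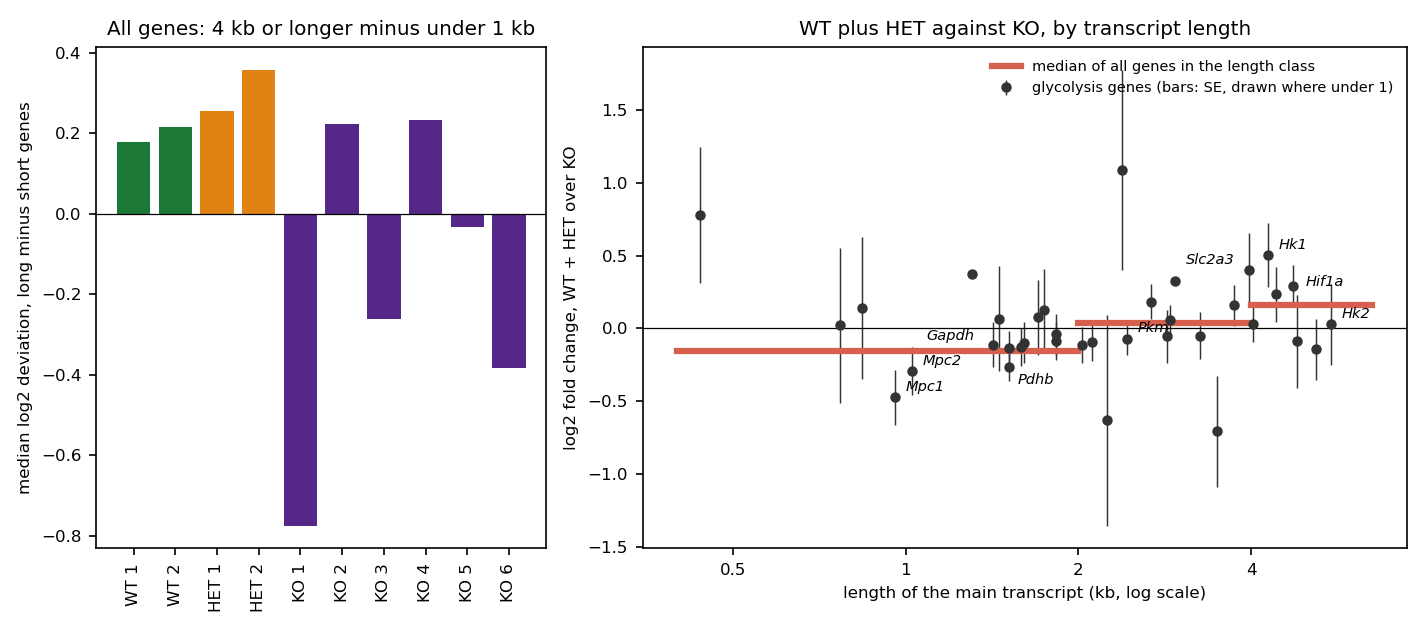
On the left, the median log2 deviation of genes of 4 kb or longer minus that of genes under 1 kb (vertical axis) for each library, all above 0 in WT and HET and below 0 in KO replicates 1, 3, 5 and 6. On the right, the log2 fold change of WT plus HET over KO (vertical axis) of each glycolysis gene against the length of its main transcript (kb, log scale), with standard errors where these are under 1 and with the median of all genes in 3 length classes as thick lines.

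Shares of paralogues within a family do not depend on library size and were compared directly. Of 12 shares, none had an adjusted p under 0.1 in WT against KO or in WT plus HET against KO by a two-sided exact permutation test over libraries, with the smallest adjusted p at 0.536 and 0.905 (Benjamini-Hochberg over the 12). The smallest p that 2 against 6 libraries can give is 0.0357, and that of 4 against 6 is 0.00476. In WT against KO a single share at this floor could not have passed the adjusted threshold, so that comparison says little. Slc2a1 made 61.8% ± 5.02 (SD, n = 2) of the transporter TPM in WT, 61.3% ± 10.3 (SD, n = 2) in HET and 69.5% ± 13.7 (SD, n = 6) in KO, with 49.6% in KO replicate 2 and 87.9% in KO replicate 6. Hk2 made 9.16% ± 0.28 (SD, n = 2) of the hexokinases in WT, 10.9% ± 1.90 (SD, n = 2) in HET and 13.8% ± 5.87 (SD, n = 6) in KO, where replicate 6 was at 25.6% and the other 5 between 10.1% and 13.3%. The share of Pfkp was 69.5% ± 3.87 (SD, n = 2) in WT, 68.6% ± 3.55 (SD, n = 2) in HET and 70.2% ± 4.8 (SD, n = 6) in KO.

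**Figure D5:**
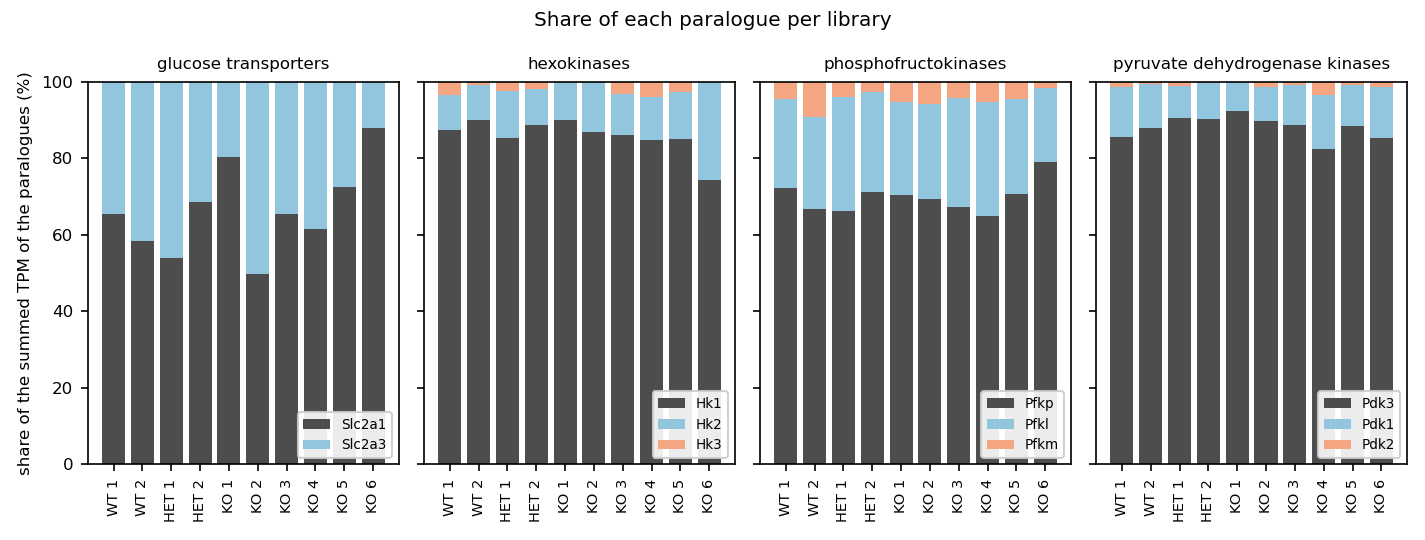
Share of each paralogue (vertical axis, % of the summed TPM of the family) in each library for the glucose transporters, hexokinases, phosphofructokinases and pyruvate dehydrogenase kinases. Hk1, Pfkp and Pdk3 make the largest part of their families in every library, and the transporter shares vary most.

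The KO mice varied among themselves to a similar degree as they did for other genes. The median coefficient of variation of CPM over the 6 KO libraries was 22.7% for the 36 genes tested and 26.5% for all genes tested. For the 11 genes of 100 TPM or more it was 15.4%, from 9.5% for Pdhb to 26.5% for Mpc1, against 17.5% for all genes of that level. KO replicate 6 was the highest library for 7 of the 37 genes and the lowest for 8, and KO replicate 1 was the highest for 7 and the lowest for 5. RNA of markers of other cell types was found in all groups. The 8 T cell markers summed to 306 and 324 TPM in WT, 153 and 161 TPM in HET and between 150 and 243 TPM in KO. Lck alone made between 77.0 and 124 TPM of this sum in the 10 libraries. Trac was at 47.8 and 42.9 TPM in WT, 7.15 and 9.32 TPM in HET and between 9.52 and 29.5 TPM in KO. In WT against HET, 7 of the 8 had a log2 fold change above 0. The 7 myeloid markers summed to 525 and 448 TPM in WT, 70.1 and 81.5 TPM in HET and between 43.2 and 790 TPM in KO. None of these markers was at 0 in every library. Lyz2, a lysozyme gene of macrophages, made 432 and 384 TPM of the myeloid sum in WT. Plasma cell markers summed to between 1268 and 1696 TPM over the 10 libraries. Most of this was Jchain, at 1082 to 1467 TPM, and Xbp1, at 159 to 306 TPM. Sdc1 was only between 0.786 and 12.5 TPM, and Prdm1 between 0.663 and 7.68 TPM. The 6 erythroid markers summed to 133 and 187 TPM in WT, 114 and 104 TPM in HET and between 176 and 257 TPM in KO. In WT plus HET against KO, 3 of the 4 erythroid genes tested (Hba-a1, Hba-a2 and Hbb-bt) had an unadjusted p under 0.05, all lower in the controls, as Mpc1 and Pdhb were, and the part of red cell RNA in those values was not tested. The 6 naive B cell markers summed to 702 and 791 TPM in WT, 421 and 447 TPM in HET and between 392 and 858 TPM in KO. The sums of T cell, myeloid and naive B cell markers were thus larger in WT than in HET, though not every marker was. In WT against HET, 5 of the 7 myeloid and 5 of the 6 naive B cell markers had a log2 fold change above 0. S100a8 and S100a9 were highest in HET replicate 2, at 9.34 and 17.5 TPM. Cr2 was at 125 and 117 TPM in WT and 142 and 122 TPM in HET. In these libraries Pfkfb3, Pfkl and Slc16a1 were lower in WT than in HET, and the part of these cells in those values was not tested.

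Other genes of glucose metabolism were taken from 5 further lists. Of 31 further glucose uptake and glycolysis genes, 21 were tested in WT against KO and 20 in WT plus HET against KO, and none had an adjusted p under 0.1. Txnip, which restrains glucose uptake, had a log2 fold change of WT over KO of 0.45 (standard error 0.20, edgeR adjusted p = 0.999), with 151 and 249 CPM in WT and between 127 and 186 CPM in KO. Gpd2, the mitochondrial glycerol 3-phosphate dehydrogenase, had a log2 fold change of WT plus HET over KO of 0.33 (standard error 0.13, edgeR adjusted p = 0.744) and 0.12 with the length offsets. Of the 10 genes of the pentose phosphate pathway, H6pd had a log2 fold change of WT over KO of 1.7 (standard error 0.66, edgeR adjusted p = 0.999). Of 17 genes of the TCA cycle, Ogdh had one of WT plus HET over KO of 0.34 (standard error 0.15, edgeR adjusted p = 0.744). None of these 10 and 17 genes, and none of 20 genes of the HIF pathway, had an adjusted p under 0.1. In WT plus HET against KO, 0 of the 19 HIF pathway genes tested had an unadjusted p under 0.05.

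Among regulators of glucose metabolism, Mtor, Rptor and Pik3cd had an unadjusted p under 0.05 in WT plus HET against KO and were higher in the controls, where 4.05% of all genes were. Mtor and Rptor encode the kinase and a subunit of the mTORC1 complex that drives glycolytic gene expression, and Pik3cd encodes the PI3K subunit of lymphocytes. Pik3cd was at 373 and 366 CPM in WT, 459 and 480 CPM in HET and between 196 and 356 CPM in KO, so that all 4 controls were above all KO libraries. WT plus HET over KO gave a log2 fold change of 0.58 (standard error 0.18, edgeR adjusted p = 0.744). Mtor was at 25.9 and 31.2 CPM in WT, 51.6 and 42.6 CPM in HET and between 12.4 and 34.8 CPM in KO, with a log2 fold change of 0.78 (standard error 0.28, edgeR adjusted p = 0.744). Rptor had one of 0.66 (standard error 0.23, edgeR adjusted p = 0.744). The main transcripts of Mtor, Rptor and Pik3cd are 8.564, 6.594 and 4.832 kb long, and with the length offsets their log2 fold changes were 0.62, 0.48 and 0.42. None of these 3 passed the adjusted threshold in any of the 4 comparisons.

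The promoters of the set were searched for a sequence feature that the choice of genes did not use. HIF-1 binds the core ACGTG, and RefSeq start sites gave 56 windows (250 bases before to 50 after the start, GRCm38.p6) for 36 of the 37 genes. The letters ACGTG on either strand read CACGT on the other strand and are part of the E-box CACGTG. They were found in 24 of the 56 windows (42.9%), against 19.6% of 32851 windows of 27025 RefSeq genes. That difference was not tested, and this background is not the set of genes quantified here. The 24 windows belong to 20 of the 36 genes, against 5886 of the 27025, and a gene with several start sites had several windows. CACGTG itself was in 7 (12.5%), against 7.15% of all windows. The windows of the set also held more CpG, with a median of 18 against 7. A match in these letters is a description of the sequence and not a binding site. 4 stretches of 60 bases upstream of the start are shown, for a transporter, 2 enzymes of high level and the regulator enzyme Pfkfb3, 5′ to 3′ in the direction of the gene, with each match in capitals.
Slc2a1, chr4:119108682-119108741 (+ strand): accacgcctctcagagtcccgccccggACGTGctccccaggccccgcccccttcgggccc
Pfkfb3, chr2:11553957-11554016 (- strand): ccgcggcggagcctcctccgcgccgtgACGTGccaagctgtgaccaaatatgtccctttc
Pgk1, chrX:106186942-106187001 (+ strand): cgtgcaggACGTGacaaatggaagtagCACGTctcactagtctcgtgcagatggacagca
Ldha, chr7:46845743-46845802 (+ strand): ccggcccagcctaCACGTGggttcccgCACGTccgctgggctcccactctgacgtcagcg

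The upstream match nearest to the start site began 36 bases before it in Slc2a1, 60 in Pfkfb3, 131 in Pgk1 and 34 in Ldha. The levels of these 4 genes spanned from 4.90 TPM for Pfkfb3 to 1129 TPM for Ldha on average, and none of the 4 had an adjusted p under 0.1 in any comparison.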

How the data were processed

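RNA-seq libraries were paired-end on a HiSeq 4000, each taken as 1 mouse. The authors quantified transcripts with Salmon 0.9.1 (submitters' processing notes) on Gencode vM17 coding transcripts, and deposited estimated counts and TPM values per transcript and library. No column of per-sample values was left unused. Estimated counts were summed per gene and rounded, since 46.7% of the transcript values were not whole. Genes passing filterByExpr were tested with edgeR 4.0.16 (TMM, quasi-likelihood, R 4.3.3), with Benjamini-Hochberg adjustment over all genes tested and a threshold of 0.1. The fits used WT and KO alone (8 libraries), WT and HET pooled against KO, and 1 term per genotype over all 10 libraries for the comparisons with HET. A fold change is the first group over the second. Paralogue shares of TPM were compared by two-sided exact permutation tests. The scripts were tested on simulated data. Depth was 26612361 to 41058976 estimated counts per library, and a count of 0 allows 3 counts, for counting error only.

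The rule for named genes was that all 37 were described by role, with values in every library for the leading gene of each role and for those with an unadjusted p under 0.05, or close to it or with a larger fold change. The genes and all lists were chosen with earlier results of these data known. Alternatives were DESeq2 1.42.0, its size factors, limma 3.58.1 on log2(TPM + 1) and log2(TPM + 0.1), other filters, counts scaled by length, a replicate block, other sets of libraries, leaving out each library and a threshold of 0.05. Offsets for a length trend were added after seeing the data. Positions of Pkm exons came from Gencode vM21 (GRCm38), in which 22349 gene identifiers matched, and promoters from RefSeq (GRCm38.p6). The study's methods name SMART-Seq v4 for cDNA and the labels a Nextera kit for the libraries. Some items of the gene and marker lists are not reported here.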

Additional observations from a re-analysis of the deposited data

Results flagged for a closer look

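Within each group of 4 or 6 libraries, the highest or lowest value was compared with the others by Dixon's ratio. Of 102 groups checked, 8 had a value far from the rest, where chance gives about 1 in 20, or 5.1. Of these 8, 4 were in KO replicate 6, the library that stood apart on the first principal component. There Pfkfb1 was at 16.3 CPM against 6.85 to 9.78 in the other KO libraries, and Pdha1 was at 223 CPM against 114 to 135. The share of Hk1 in the hexokinases was 74.4% against 84.8% to 89.9%, and that of Hk2 was 25.6% against 10.1% to 13.3%. Hk3 was at 0 in that library, so these 2 shares are complements and not separate departures, and the 8 values are not independent. Hk1 was at 8.60 TPM and Hk2 at 2.96 TPM there, and in KO replicate 1, with a similar level of Hk1 (9.05 TPM), Hk2 was at 1.02 TPM. Aldoc, a brain aldolase, was at 26.3 CPM in KO replicate 1 against 10.4 to 16.2. Ldhb was at 2.60 CPM in KO replicate 4 against 0 to 0.802. Eno2 was at 0.913 CPM in KO replicate 3 against 0 to 0.188, and at 0.797 CPM in HET replicate 1 against 0 to 0.0720 in the other control libraries. What sets these libraries apart was not tested.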

How the results depend on the processing

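No glycolysis or glucose uptake gene had an adjusted p under 0.1 in any comparison under any alternative run. Of 34 log2 fold changes recomputed, 27 kept their direction in every alternative and 7 did not. The number of all genes called, 1 in each comparison, moved with the setting. In WT against KO it was 5 with DESeq2, 0 and 3 with limma on log2(TPM + 1) and log2(TPM + 0.1), 2 in one fit of all libraries, 0 at a threshold of 0.05, 0 with length offsets, and 0 to 2 when 1 library was left out. In WT plus HET against KO it was 18 with DESeq2, 0 with limma at either pseudocount, 0 with counts scaled by length, and 1 to 2 when 1 library was left out. In HET against KO it was 458 with DESeq2, 2 without a filter, 0 with at least 10 counts in every library, 0 with only the libraries of both groups, 2 with length offsets, and 0 to 5 when 1 library was left out. In WT against HET it was 125 with DESeq2, 0 with at least 10 counts, 523 with only the libraries of both groups, and 0 to 16 when 1 library was left out. The cause of these moves was not tested.

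Directions also turned for rare paralogues. When 1 library was left out, the log2 fold change in WT against KO ran from -0.011 to 0.58 for Aldoc, from -0.93 to 1.38 for Hk3, from -1.38 to 0.11 for Pdk2 and from -0.24 to 0.73 for Eno3, with the turned values in fits without WT replicate 1 (Hk3, Eno3) or 2 (Aldoc, Pdk2). In WT plus HET against KO it ran from -0.31 to 0.90 for Hk3 and from -0.37 to 1.22 for Ldhb, which was also at -0.049 in one fit with a term per genotype.

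Same-numbered libraries share only a number, with correlations of their deviations from -0.00797 to 0.127. With the replicate number as a block, edgeR called 6 genes in WT against KO, 0 in WT plus HET against KO, 4 in HET against KO and 66 in WT against HET. Under the block the log2 fold change of Pdk2 was 0.98 in WT against KO and 0.16 in WT plus HET against KO, and that of Eno3 was -0.049 in WT against KO, each with its direction turned. Hk3, with a count of 0 in 3 KO libraries, went from 0.65 to 8.34 in WT against KO and from 0.33 to 8.02 in WT plus HET against KO, and the glycolysis genes with an unadjusted p under 0.05 in WT against KO went from 1 to 2.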
